A study of Homo sapiens with 6 samples.

Results

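The regions described here were called as open in NuMA-depleted replicates 1 and 2 and in none of the other 4 libraries. ATAC-seq peak lists were available for 3 NuMA-depleted and 3 wild-type libraries of HCT116, an established human colon cancer line. The genotype and treatment labels read NuMA depletion for one group and wild type for the other. They do not state how NuMA was removed, the sample titles carry the code AID without spelling it out, and nothing says whether the cells were 1 clone or the replicates separate cultures. The lists were merged wherever peaks shared at least 1 bp, which gave 58926 regions on chromosomes 1 to 22 and X. Of these, 2322 were called in NuMA-depleted replicates 1 and 2 only, 3.94% of all merged regions. They were set beside 1328 regions, 2.25%, called in exactly 2 wild-type libraries and in no NuMA-depleted library. The regions were chosen by the presence or absence of a peak in each list, so the counts, folds, q values and widths below are descriptions without a test.

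ATAC-seq uses a transposase that cuts and tags DNA where nucleosomes and linker histone leave it exposed, so that reads pile up at active promoters, enhancers and insulators. NuMA is a large coiled-coil protein that gathers microtubule minus ends at the spindle poles in mitosis and belongs to the nucleoskeleton in interphase. Linker histone H1 binds nucleosomes at the entry and exit of the DNA and favours compact stacking. The series asks whether NuMA keeps local chromatin in order partly through H1. A peak list does not measure NuMA itself, so the depletion could not be checked from these files, and no genome or gene annotation of build hg19 was used. The regions are therefore given by position, without a gene or a sequence.

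The lists that defined the regions differed in length and depth. NuMA-depleted replicates 1, 2 and 3 had 38466, 45892 and 21783 peaks, and wild-type replicates 1, 2 and 3 had 35502, 38685 and 32503. The list of replicate 3, in which the regions had to be missing, was the shortest of the 6, and the list of replicate 2 was the longest and that of replicate 1 the third longest, after wild-type replicate 2. Relative depth was taken from the smallest recovered background and peak width of each list, scaled to a mean of 1 over the 6 libraries. It was 1.07, 1.21 and 1.11 in NuMA-depleted replicates 1, 2 and 3. It lay between 0.762 and 0.975 in the wild-type libraries. At the 17009 regions called in all 6 libraries the median fold over local background was 8.24 and 8.15 in the lists of NuMA-depleted replicates 1 and 2. It was 6.43 in that of NuMA-depleted replicate 3 and between 7.65 and 8.76 in the wild-type lists. NuMA-depleted replicate 3 thus stood apart by a short list and low folds, although its recovered depth was above that of replicate 1. A missing call means only that no peak reached the listing limit in that library, and closed chromatin is not implied by it.

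Replicates 1 and 2 held far more regions of their own than any other pair of libraries from the same group. NuMA-depleted replicates 1 and 3 alone shared 60 regions (0.102% of merged regions), and replicates 2 and 3 alone shared 217 (0.368%). Among wild-type pairs, replicates 1 and 2 alone shared 627 regions (1.06%), replicates 1 and 3 alone 267 (0.453%) and replicates 2 and 3 alone 434 (0.737%). As a share of everything a pair had in common, the 2322 regions made up 6.98% of the 33273 regions called in both NuMA-depleted replicates 1 and 2. The corresponding share was 2.22% of 28293 regions for wild-type replicates 1 and 2, 1.03% of 25831 for wild-type replicates 1 and 3, and 1.60% of 27059 for wild-type replicates 2 and 3. The requirement of absence was not the same for all pairs. The 4 lists in which the NuMA-depleted regions had to be missing held 128473 peaks in total, the fewest for any within-group pair, and those for the wild-type pairs held from 138644 to 144826.

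The excess over the other pairs depended on which peaks were counted, and it shrank when all lists were limited to the same number of peaks for presence and absence alike. With the strongest 21783 peaks of each list, 446 regions were called in NuMA-depleted replicates 1 and 2 only. The other NuMA-depleted pairs then had 352 and 388 regions of their own, and the wild-type pairs had 374, 360 and 354. Under that setting the regions called in exactly 2 wild-type libraries, 1088 over the 3 pairs together, outnumbered those of NuMA-depleted replicates 1 and 2. Of the 2322 regions, 178 (7.67%) overlapped one of these 446, and the rest of the 446 lay in merged regions where a further library had a peak below its strongest 21783. When NuMA-depleted replicate 3 was set aside and the other 5 lists were limited to 32503 peaks each, 1323 regions were called in NuMA-depleted replicates 1 and 2 only. The wild-type pairs then had 692, 839 and 688 of their own. Of the 2322 regions, 868 (37.4%) overlapped one of the 1323. When only the strongest 21783 peaks counted as calls but any deposited peak barred a region, NuMA-depleted replicates 1 and 2 had 178 regions, against at most 56 in any other within-group pair. The ratio to regions of exactly 2 wild-type libraries was then 1.40, against 1.75 with all deposited peaks. The excess did not shrink under every setting. With a −log10 q of at least 5 in all lists, NuMA-depleted replicates 1 and 2 had 2499 regions, against at most 427 in any other within-group pair. Of the 2322 regions, 1666 (71.7%) overlapped one of these 2499, and the limit also removed weaker calls that had barred a region. The pair of NuMA-depleted replicates 1 and 2 had the highest count of the within-group pairs under each of these settings and with all deposited peaks. With NuMA-depleted replicate 3 set aside, only the wild-type pairs were left to compare. The part played by list length in the count of 2322 was not tested further.

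**Figure D1:**
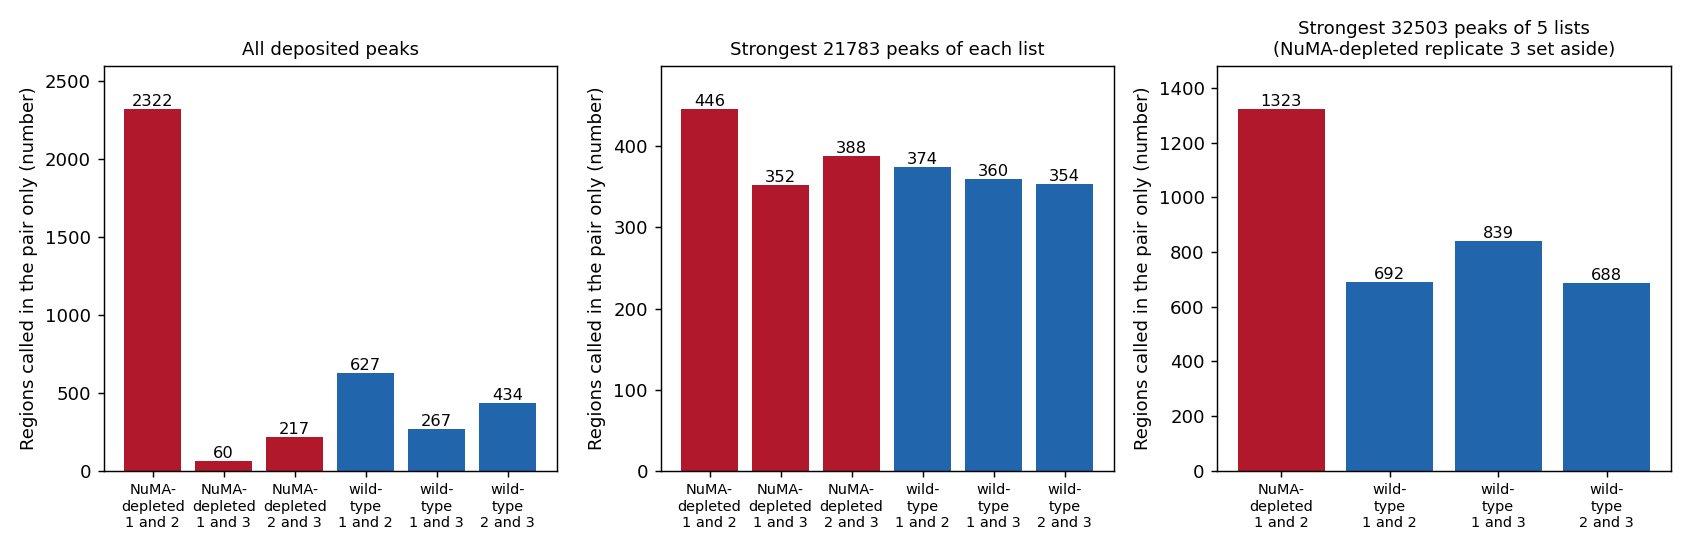
Number of regions called in a pair of libraries of the same group and in no other library, for NuMA-depleted pairs (red) and wild-type pairs (blue). The bar of NuMA-depleted replicates 1 and 2 stands at 2322 with all deposited peaks, at 446 with 21783 peaks per list and at 1323 with 32503 peaks in 5 lists, and the other bars reach at most 627, 388 and 839.

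Most of the 2322 regions were modest peaks within their own lists. In the list of NuMA-depleted replicate 1 their fold over local background had a lowest value of 2.64, a median of 5.77 and a highest value of 14.8. In that of NuMA-depleted replicate 2 the lowest, median and highest folds were 2.44, 5.63 and 13.7. The whole lists had median folds of 7.01 and 6.63, so the typical region lay below the middle of both. Ranked by −log10 q, the median region stood at percentile 23.2 of the list of replicate 1 and at percentile 26.6 of that of replicate 2. Both calls lay below the list median for 1800 regions (77.5%) and both at or above it for 147 (6.33%). Regions called in all 6 libraries stood at a median percentile of 73.8 in the list of replicate 1 and of 79.4 in that of replicate 2.

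The summit pileup behind a call was small. It is given here as fragments, although no source used states what the caller counted. At the summit, the median region had 15 fragments in NuMA-depleted replicate 1, where a count of 15 has an exact 95% Poisson interval of 8.40 to 24.7 fragments. In NuMA-depleted replicate 2 the median was 18 fragments, with an interval of 10.7 to 28.4. The local background beneath them had a median of 1.62 and 2.23 fragments. The fold adds 1 to both the summit count and the background, so it is smaller than their plain ratio. The Poisson intervals cover counting error only, since fragments amplified by PCR without molecular identifiers are not independent molecules. The lowest 5% of peaks had at most 10 summit fragments in the list of NuMA-depleted replicate 1, at most 12 in that of replicate 2 and at most 10 in that of replicate 3. The smallest summit count of any listed peak was 7, 8 and 7 fragments in NuMA-depleted replicates 1, 2 and 3.

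Compared with the regions of exactly 2 wild-type libraries, those of NuMA-depleted replicates 1 and 2 had higher −log10 q values and were wider, while folds overlapped. Median folds were 5.77 and 5.63 in NuMA-depleted replicates 1 and 2, against 5.21, 5.72 and 5.33 for the wild-type regions in wild-type replicates 1, 2 and 3. The weaker −log10 q of the calling pair had a median of 6.40 (interquartile range 4.73 to 8.88) in the NuMA-depleted regions. In the wild-type regions it had a median of 4.82 (3.76 to 6.49). It reached at least 10 in 397 (17.1%) of the NuMA-depleted and in 87 (6.55%) of the wild-type regions. It reached at least 20 in 13 and 3 of them. A q value depends on its library's depth and list, and the recovered depth of both NuMA-depleted libraries was above that of every wild-type library. By percentile of the library's own list, the wild-type regions had medians of 18.01, 20.7 and 16.96 in wild-type replicates 1, 2 and 3. The median width was 476 bp for the NuMA-depleted and 377 bp for the wild-type regions, against 540 bp for all merged regions. The narrowest peak in the list of NuMA-depleted replicate 2 measured 264 bp and those in the wild-type lists 190 to 222 bp, and the part of this limit in the difference was not tested. With every list limited to peaks of at least 264 bp, 2703 regions belonged to NuMA-depleted replicates 1 and 2 only and 811 to exactly 2 wild-type libraries, at most 321 of them to any 1 pair. This limit removed no peak from the list of NuMA-depleted replicate 2, while every other list had narrower peaks.

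**Figure D2:**
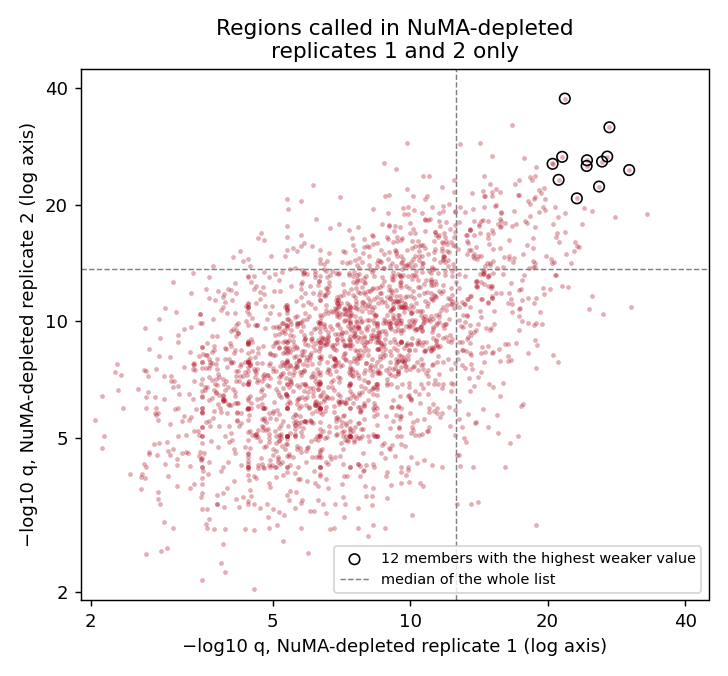
The −log10 q of the 2322 regions in NuMA-depleted replicate 1 (horizontal) and replicate 2 (vertical), both on log axes, 1 point per region. Dashed lines mark the medians of the whole lists, 12.6 and 13.6, circles mark the 12 regions with the highest weaker value, and most points lie below both lines.

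Calls confined to the pair were rarer among stronger regions. Among regions called in both NuMA-depleted replicates 1 and 2 with a weaker −log10 q of 2 to 5, 656 of 2434 (27.0%) had no call in another library. That share was 13.7% (1269 of 9244) from 5 to 10, 4.01% (316 of 7878) from 10 to 15 and 1.27% (68 of 5360) from 15 to 20. It was 0.226% (13 of 5747) from 20 to 30, and none of the 2610 regions above 30 was missing from the other 4 libraries. NuMA-depleted replicate 3 called 15.4% of the regions with a weaker −log10 q of 2 to 5, 56.9% of those from 10 to 15 and 90.01% of those from 20 to 30. At least 1 wild-type library called 70.5%, 94.9% and 99.7% of the same regions. In the wild-type pairs the share of pair-only regions was also highest in the weakest bin, with 11.2%, 5.93% and 8.23% for replicates 1 and 2, 1 and 3, and 2 and 3. From 10 to 15 it was 0.521%, 0.166% and 0.359% in the same pairs. The call in the remaining wild-type library was present at 55.8%, 72.8% and 63.1% of the regions in the weakest bin.

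**Figure D3:**
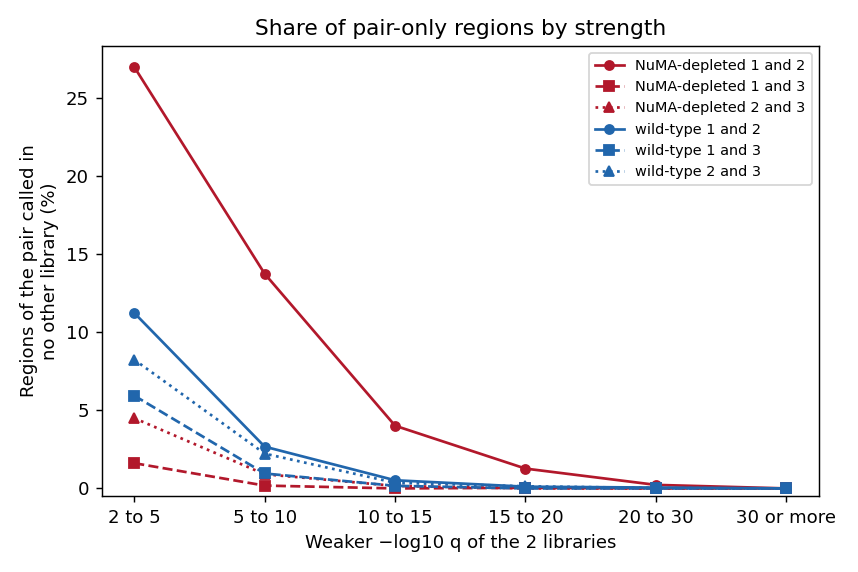
Percent of the regions called in both libraries of a within-group pair that had no call in any other library, by the weaker −log10 q of the pair. NuMA-depleted replicates 1 and 2 had 27.0% in the weakest bin and 13.7% in the next, above the other 5 pairs, and all pairs approached 0 in the strongest bins.

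Some regions sat close to the limits of the rule. The lists stop at a q of 0.01. The nearest member inside that limit, at 56174006 to 56174448 on chromosome 14 of build hg19, the build of every position given, had a −log10 q of 2.04 in NuMA-depleted replicate 2 with 8 summit fragments, and of 4.55 in replicate 1. Next came chromosome 7 at 4490281 to 4490557, with 2.05 in replicate 1 and 5.56 in replicate 2. The third, on chromosome 5 at 109079598 to 109079943, had 2.11 in replicate 1 and 4.71 in replicate 2. Just outside the rule, the region on chromosome 5 at 145422092 to 145422587 was lost to a call of −log10 q 2.004 in wild-type replicate 3, with 8 fragments. On chromosome 17 at 75327396 to 75327839, the excluding call was one of 2.04 in wild-type replicate 1. A call of 2.04 in that library also excluded the region on chromosome 4 at 157396422 to 157397923, although its −log10 q was 11.5 in NuMA-depleted replicate 1 and 15.7 in replicate 2. Regions called in NuMA-depleted replicates 1 and 2 and in a single further library numbered 368 with NuMA-depleted replicate 3, and 841, 1270 and 612 with wild-type replicates 1, 2 and 3. The further call had a −log10 q under 5 in 159 of the 368 and in 288, 247 and 202 of the others.

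The 12 strongest regions, taken by the weaker −log10 q, lay on 9 chromosomes and ranked between percentiles 71.0 and 93.0 of their lists. The first was on chromosome 14 at 88889398 to 88889714. It had a fold of 11.5 with 36 summit fragments over a background of 2.22 in NuMA-depleted replicate 1, and a fold of 11.9 with 41 fragments over 2.52 in replicate 2. The nearest other merged region, itself called in all 6 libraries, was 37.0 kb away. The second, on chromosome 1 at 110976216 to 110976733, had folds of 9.84 and 8.52 with 41 and 45 fragments in replicates 1 and 2. The third, on chromosome 2 at 100630074 to 100630649, had folds of 11.6 and 10.1 in replicates 1 and 2 and was the most isolated of the 12, with 132.8 kb to the nearest region of any library. On chromosome 13 the region at 112696723 to 112697258 had folds of 12.8 and 10.1. All 4 stood at percentile 78.6 or higher in both lists.

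The remaining strong regions resembled them in size. Chromosome 5 held one at 145155404 to 145156080 with folds of 11.5 and 10.5 in replicates 1 and 2, and chromosome 2 another at 175128818 to 175129302 with 11.1 and 10.7. On chromosome 3, at 12747948 to 12748239, the folds were 10.4 and 8.65. The most uneven of the group was at 49553730 to 49554094 on chromosome 19, where the fold was 10.3 in replicate 1 and 13.7 in replicate 2. On chromosome 1 there were 2 more, at 219262061 to 219262566 and at 35245046 to 35245710. The region at 35245046 had the lowest folds of the 12, 6.23 and 4.95, on the highest background, 7.67 and 11.1 fragments, and lay 0.670 kb from a region called in all 6 libraries. The others were on chromosome 4 at 85735458 to 85736185 and on chromosome 7 at 154705498 to 154705847. In all 12 the summits of replicates 1 and 2 lay within 57 bp of each other, and the widths ran from 292 to 728 bp. The strongest wild-type pair regions were of like size. On chromosome 16 at 84096476 to 84096776 the folds were 11.6 in wild-type replicate 2 and 9.99 in replicate 3. On chromosome 7 at 143824707 to 143825247 they were 11.8 in wild-type replicate 1 and 13.2 in replicate 2, and on chromosome 1 at 10010301 to 10010776 they were 11.6 and 12.1 in the same libraries. The next 3, at 48804365 to 48804690 on chromosome 18, 127087131 to 127087708 on chromosome 7 and 35653954 to 35654353 on chromosome 19, had folds between 7.37 and 12.8.

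Inside the regions, the peaks of NuMA-depleted replicates 1 and 2 overlapped, which merging required, so their closeness was partly fixed in advance. Each library contributed exactly 1 peak in 2320 of the 2322 regions, and 3 peaks met in the other 2. The distance between the summits of the pair had a median of 41 bp, with 56.2% within 50 bp and 79.6% within 100 bp. The same pair of libraries had a median of 52 bp in the wider regions called in all 6 libraries. Wild-type pair regions had medians of 50, 57 and 41 bp for replicates 1 and 2, 1 and 3, and 2 and 3. The shorter peak of the pair was covered by the other over a median of 99.3% of its length. For the same pair in regions called in all 6 libraries the median was 100%. Coverage reached at least 90% in 73.2% of the 2322 regions and in 91.9% of those called in all 6. In 25 regions the overlap was under 20% of the shorter peak, and the largest summit distance was 1015 bp. The −log10 q values of the pair had a Spearman correlation of 0.503 over the 2322 regions and of 0.769 over the 17009 regions called in all 6 libraries. Both are descriptions across regions of the same 2 libraries, and values below the listing limit are missing from the first.

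Summits agreed better in stronger regions, while width hardly varied. The 656 regions with a weaker −log10 q below 5 had a median summit distance of 71.5 bp, the 1269 from 5 to 10 had 37 bp and the 397 at 10 or more had 28 bp. Median widths in these classes were 461.5, 476 and 490.0 bp. Median summit fragments were 11, 15 and 22 in NuMA-depleted replicate 1 and 14, 18 and 26 in replicate 2. Of the 2322 regions, 27 were wider than 1 kb, against 3 of the 1328 wild-type pair regions. The same count was not made over all merged regions, whose median width was 540 bp. The widest, on chromosome 15 at 69814821 to 69816162, measured 1342 bp, with folds of 8.50 in replicate 1 and 5.41 in replicate 2. The next were 1297 bp on chromosome 13 at 44934082 to 44935378 and 1238 bp on chromosome 12 at 98766677 to 98767914. In the region on chromosome 13 the summits were 773 bp apart. All 2322 together spanned 1169.8 kb.

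Few of the regions lay beside a region that every library called. The gap to the nearest region called in all 6 libraries had a median of 37.2 kb, against 36.4 kb for wild-type pair regions and 34.9 kb for all merged regions. Gaps under 1 kb to a region called in all 6 libraries were found for 21 (0.904%) of the NuMA-depleted regions. They were found for 39 (2.94%) of the wild-type pair regions and for 1.81% of all merged regions. To any other merged region, gaps under 1 kb were found for 5.43% of the NuMA-depleted and 11.1% of the wild-type pair regions, and for 7.70% of all merged regions. A wide peak fuses with a close neighbour on merging, and the peaks of NuMA-depleted replicate 2 were the widest, with a median of 536 bp against 434 to 468 bp in the wild-type lists. The part of peak width in these shares was not tested. Gaps to the libraries without a call were measured for the 2322 regions only. They have no comparison set, and the part of list spacing in them was not tested. The median gap to the nearest region called in NuMA-depleted replicate 3 was 28.6 kb, and 32 of the 2322 had one within 1 kb. For wild-type replicates 1, 2 and 3 the median gaps were 17.3, 16.2 and 18.7 kb, with 62, 76 and 66 regions within 1 kb. With peaks up to 500 bp apart merged, the count was 2300, and 2278 of the 2322 regions (98.1%) overlapped one of these.

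The regions were spread over all 23 chromosomes, broadly in proportion to all merged regions. Chromosome 1 had the most, 199 (8.57%), against 7.83% of wild-type pair regions and 9.64% of all merged regions. The ratio of the share of NuMA-depleted regions to the share of all merged regions ran from 0.676 on X to 1.32 on chromosome 22. For the wild-type pair regions this ratio ran from 0.746 to 1.28. Chromosome 22 held 68 (2.93%) of the NuMA-depleted and 26 (1.96%) of the wild-type pair regions, and 2.21% of all merged regions. Chromosome 21 held 32 (1.38%) of the NuMA-depleted and 12 (0.904%) of the wild-type pair regions, and 1.10% of all merged regions. Chromosome 17 held 136 (5.86%) of the NuMA-depleted and 60 (4.52%) of the wild-type pair regions, and 5.03% of all merged regions. The share of NuMA-depleted regions was above that of all merged regions on 10 of the 23 chromosomes. In the other direction, X held 31 (1.34%) of the NuMA-depleted and 33 (2.48%) of the wild-type pair regions, and 1.97% of all merged regions. X was the 1 chromosome with fewer NuMA-depleted than wild-type pair regions by number, whereas the genome as a whole had 1.75 times as many. The wild-type pairs had 2.39%, 1.87% and 2.995% of their regions on X, for replicates 1 and 2, 1 and 3, and 2 and 3. The whole lists of NuMA-depleted replicates 1 and 2 had 1.898% and 1.92% of their peaks on X, and the wild-type lists had 1.99% to 2.09%. The chromosomes named were picked after their values were seen, and no test was made across regions.

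**Figure D4:**
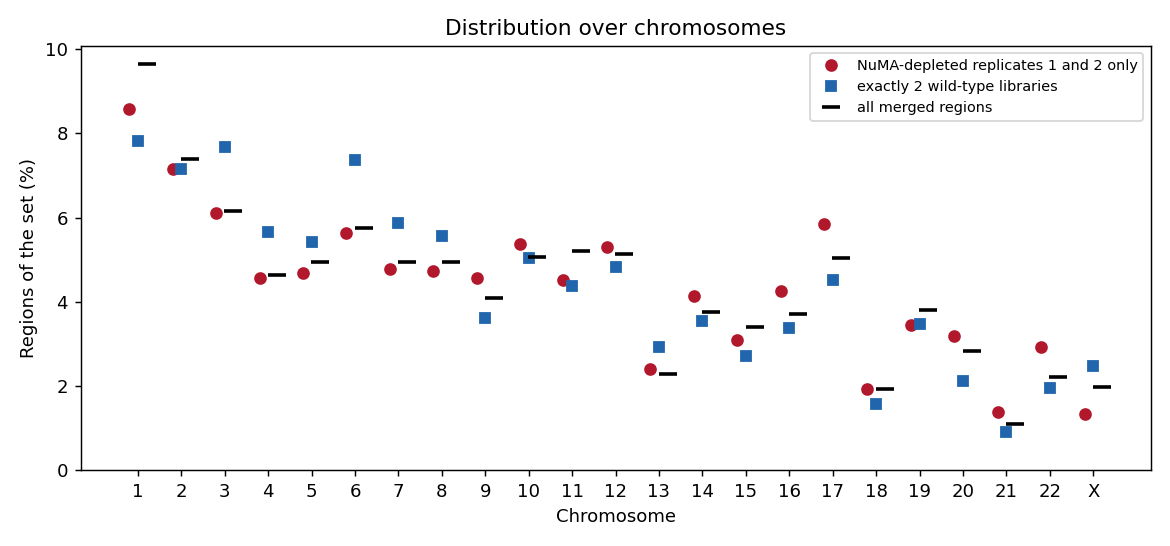
Percent of regions on each chromosome for the 2322 regions of NuMA-depleted replicates 1 and 2 only (red circles), the 1328 regions of exactly 2 wild-type libraries (blue squares) and all 58926 merged regions (black dashes). The red circles follow the black dashes on most chromosomes, lying above them on chromosome 22 (2.93% against 2.21%) and below them on X (1.34% against 1.97%).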

How the data were processed

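Peaks were compared in 6 ATAC-seq libraries, grouped by genotype label. Per the submitters' processing notes, Trim Galore, Bowtie2 2.4.1 and Picard were used on build hg19. The deposited peak names record a macs2 folder, and no source used here gives the caller's settings, a read shift or an artefact filter. Each deposited list holds 1 library's peaks, with the fold over local background as a linear ratio, −log10 p, −log10 q and a score of 10 times −log10 q that was not used. The fold and q are the authors' own values and describe or rank peaks within their list. Folds set side by side between libraries were not adjusted for depth.

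Lists were merged at 1 bp in Python 3.11.15 with numpy 2.4.6, pandas 2.3.3 and scipy 1.17.1. Where a library had several peaks in a region, the one with the highest −log10 q stood for it. Summit fragments and background were recovered from fold and −log10 p under a Poisson model, within 0.01, for at least 99.986% of each list's peaks. The recovery took the fold as summit fragments plus 1 over background plus 1. Relative depth is the smallest background divided by the smallest peak width, and assumes that this width equals the caller's fragment length. Merging, the rule and the recovery of summit fragments were tested on simulated data, and relative depth was not. Gaps are bases between region edges.

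The regions named are the 12 strongest and 3 widest members, 3 on each side of the listing limit and the 6 strongest wild-type pair regions. Members, lists and rules were chosen with earlier results of these data known. Genes, gene lists, cell line markers, motifs and sequence content were planned and are not analysed here, since the reference tables are of another build. Alternatives were other q limits, equal list lengths, autosomes, summit windows, a merging gap, a common smallest width and leaving out each library.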

Additional observations from a re-analysis of the deposited data

How the results depend on the processing

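The count of 2322 regions stayed within 1.5 times under 6 of the 9 alternatives other than leaving out 1 library at a time. A count within that limit need not hold the same regions. Of the 2322 regions, 98.1% to 98.9% overlapped a region of the setting for autosomes, summit windows and a merging gap. The share was 71.7% for both settings with a −log10 q limit of 5 and 77.5% with a common smallest width. The count moved to 446 at equal numbers of peaks, to 178 when only the strongest 21783 peaks counted as calls but any deposited peak barred a region, and to 1323 with NuMA-depleted replicate 3 set aside and equal numbers in 5 lists. The count of 1328 wild-type pair regions moved to 607 when a call needed a −log10 q of 5 or more but any deposited peak barred a region, to 127 and 2219 under the last 2 settings above, and to 811 with a common smallest width. The cause was not tested. Leaving out a library loosens the rule for the NuMA-depleted count, and for the wild-type count where a NuMA-depleted library is left out. Without a wild-type library 1 wild-type pair remains, and its regions no longer have to be absent from the library left out. The NuMA-depleted count ran from 2691 to 7975, above 1.5 times without NuMA-depleted replicate 1 (7975), NuMA-depleted replicate 2 (4907) and wild-type replicate 2 (3590). The wild-type count ran from 616 to 3230, outside 1.5 times without NuMA-depleted replicate 2 (3230), wild-type replicate 1 (786) and wild-type replicate 2 (616). Of 32 values of width, fold and gap under alternatives, 20 moved by less than the SD over the 6 within-group pairs. Median folds rose to 8.08 and 8.09 in NuMA-depleted replicates 1 and 2 at equal numbers, as weaker peaks left the lists. Alternatives for promoters, motifs and GC content were not run. No paired analysis was possible because the results come from no test, and the labels do not say whether shared replicate numbers mark a batch. Summit counts of about 15 fragments limit what a missing call can show.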

Other observations

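In 1 Mb stretches of the genome, picked after their values were seen, the 2322 regions of NuMA-depleted replicates 1 and 2 were scattered with few dense groups. Of 2583 stretches with any merged region, 1358 held at least 1 of them and 29 held 5 or more. Wild-type pair regions, fewer in number, fell in 959 stretches, of which 1 held 5 or more. The most, 7, lay on chromosome 14 from 69 to 70 Mb, among 56 merged regions of which 36 were called in both NuMA-depleted replicates 1 and 2. That stretch held 1 wild-type pair region. On chromosome 12 from 2 to 3 Mb there were 6 among 35 merged regions (17.1%), with no wild-type pair region, and on chromosome 1 from 182 to 183 Mb there were 6 among 36 (16.7%), with 1. Chromosome 16 from 2 to 3 Mb held 6 among 62 and chromosome 10 from 73 to 74 Mb 6 among 48, each with no wild-type pair region. Neighbouring regions of the set lay a median of 273 kb apart, and 2 of the 2322 had another within 1 kb. At the other extreme, 50 of the 2322 (2.15%) were at least 100 kb from every other merged region, against 39 wild-type pair regions (2.94%) and 1329 of all merged regions (2.26%), and the most isolated was 403.7 kb from its nearest neighbour.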
